A study of Mus musculus with 12 samples.

Results

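The genes described here are markers of dividing cells in mouse hind limb muscle: Mki67, Top2a, Ccna2, Ccnb1, Ccnb2, Cdk1, Bub1, Aurkb, Birc5 and Rrm2. They were chosen by name, and all 10 were found among the 22923 gene symbols measured, each with a value above 0 in every sample. Muscle of male FVB mice 22 weeks of age was sequenced in 12 libraries, with 3 samples for each pairing of genotype (WT or KO) and diet (normal chow or high fat), and values of a group are given in the order of samples 1, 2 and 3. The KO mice lack both αB-crystallin (Cryab) and HspB2 (Hspb2), small heat shock proteins of muscle, in all tissues. The WT mice are called Flox in the sample titles, and the mice of all groups share the strain, the sex and the age. The comparisons ask whether diet or genotype moved these genes, and whether their level followed RNA of bone marrow or of lymphoid tissue in the samples.

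Adult muscle fibres do not divide. The dividing cells of a muscle sample are satellite cells and their progeny, fibroblasts, endothelial cells and white blood cells, and bone marrow and the germinal centres of lymph nodes hold many more. A cell copies its DNA in S phase with the help of ribonucleotide reductase (Rrm2) and cyclin A2 (Ccna2), then enters mitosis when cyclin B1 or B2 (Ccnb1, Ccnb2) switches on the kinase Cdk1. Topoisomerase II alpha (Top2a) untangles the chromosomes, Bub1 holds the spindle checkpoint, Aurora B (Aurkb) and survivin (Birc5) sit together in the chromosomal passenger complex, and Ki-67 (Mki67) coats the mitotic chromosomes.

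Many genes of this kind carry CCAAT boxes, bound by NF-Y, and a cell cycle homology region (CHR), bound by the DREAM and MuvB complexes, close to the start site. RefSeq promoter sequence of the mouse build GRCm38.p6, from 250 bases before to 50 bases after the start, was matched for 8 of the 10 members, all but Ccna2 and Aurkb. The letters searched on both strands were CCAAT for the box of that name, and TTTGAA and also TTCGAA for the CHR. For E2F they were TTGGCGC in its usual form, TTGCCGC as the next form, TTCGCGC as another and TTCCCGC as the last. A CCAAT box was present in 7 of the 8 promoters against 37.4% of 32851 promoters in all. At least 2 boxes were present in 6 of the 8 against 11.7%, a CHR in 5 against 19.2%, both a CCAAT box and a CHR in 5 against 7.52%, and an E2F motif in 4 against 9.57%. Birc5 held none of these letters. The 120 bases before the start site are shown for the kinase Cdk1, for both of its mitotic cyclins and for the S phase gene Rrm2, since these show the repeated CCAAT boxes of the mitotic genes beside the single box of Rrm2. Capitals mark the motifs (ATTGG is a CCAAT box on the other strand), and in Ccnb1 the E2F letters and the first CCAAT box overlap.
Cdk1 (chr10:69352913-69353032, minus strand): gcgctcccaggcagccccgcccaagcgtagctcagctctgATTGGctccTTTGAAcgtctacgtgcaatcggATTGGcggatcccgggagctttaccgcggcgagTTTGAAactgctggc
Ccnb1 (chr13:100786487-100786606, minus strand): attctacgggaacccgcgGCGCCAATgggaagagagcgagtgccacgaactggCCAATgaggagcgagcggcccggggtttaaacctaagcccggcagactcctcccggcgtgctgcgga
Ccnb2 (chr9:70421555-70421674, minus strand): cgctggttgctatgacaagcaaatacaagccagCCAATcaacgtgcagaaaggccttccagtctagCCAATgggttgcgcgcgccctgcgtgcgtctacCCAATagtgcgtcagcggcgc
Rrm2 (chr12:24708134-24708253, plus strand): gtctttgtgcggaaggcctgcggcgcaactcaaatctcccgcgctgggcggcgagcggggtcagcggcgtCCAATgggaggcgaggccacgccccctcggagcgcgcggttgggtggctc
These matches describe the letters in the windows and do not show that a factor was bound in these samples.

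Before the values of the members, the libraries themselves need a description. Cryab lay between 412 and 837 FPKM in the 6 libraries titled Flox and between 0.845 and 1.75 FPKM in the 6 titled KO, so the titles were used, although the genotype label of 6 samples conflicts with the title. FPKM is a level, in sequenced fragments, scaled to library size and transcript length. The depth in reads is unknown; from the steps between low values, the deepest library had 1.36 times the depth of the shallowest. Muscle fibre genes as a sum were abundant in every library (9 genes, 1 of them at 0 in each library, summed level 39590 to 71290 FPKM). Genes of other tissues were high in some. A lymphoid score, the mean of log2(FPKM + 1) over 13 B cell and 13 T cell genes, was 2.43 in WT chow sample 2, 2.56 in KO chow sample 1 and 2.59 in KO chow sample 3, and 0.148 to 0.413 in the other 9. A marrow score, the same mean over 13 genes of neutrophil precursors and 12 of erythroid precursors, was 2.21 in WT high fat sample 1 and 1.69 in WT high fat sample 3, and 0.177 to 0.952 in the other 10. In bulk muscle, fewer cells of a type and less RNA per cell cannot be told apart, and this holds for every level below.

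Of the S phase genes, Rrm2 (chr12:24708254-24714146), the small subunit of ribonucleotide reductase, had the highest level of the 10 members, at a mean of 1.702 FPKM over the 12 libraries. It was at 0.971, 2.83 and 0.922 FPKM in the WT chow samples, 2.37, 1.08 and 2.15 in the WT high fat samples, 1.698, 0.911 and 3.24 in the KO chow samples and 1.04, 2.07 and 1.14 in the KO high fat samples. KO chow sample 3 and WT chow sample 2, both with a high lymphoid score, were highest, and the 4 groups overlapped. Ccna2 (chr3:36564865-36573038) was at 1.004, 2.14 and 1.33 FPKM in the WT chow samples, 1.94, 1.18 and 1.47 in the WT high fat samples, 1.45, 0.779 and 1.83 in the KO chow samples and 1.01, 1.58 and 1.49 in the KO high fat samples. It varied least of the members, by 2.75 times between the lowest and the highest library, and its span shares 863 bases with that of Exosc9, a subunit of the RNA exosome, at 9.29 to 12.4 FPKM. The library kit named in the labels does not mark strand, so reads from the shared bases cannot be told apart and the level of Ccna2 is uncertain. Top2a (chr11:98992947-99024199) was at 0.207, 1.14 and 0.302 FPKM in the WT chow samples, 0.511, 0.217 and 0.567 in the WT high fat samples, 0.799, 0.238 and 1.301 in the KO chow samples and 0.354, 0.376 and 0.301 in the KO high fat samples. Its 3 highest libraries were the 3 with a high lymphoid score, and the others lay at or under 0.567 FPKM.

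The cyclin B genes and their kinase were lower. Ccnb1 (chr13:100778739-100786486), the main mitotic cyclin, was at 0.121, 0.617 and 0.0448 FPKM in the WT chow samples, 0.444, 0.213 and 0.385 in the WT high fat samples, 0.636, 0.165 and 0.799 in the KO chow samples and 0.247, 0.336 and 0.214 in the KO high fat samples. The same 3 libraries were highest, followed by WT high fat samples 1 and 3, the libraries with the highest marrow scores. Ccnb2 (chr9:70407689-70421554) was at 0.487, 0.794 and 0.3003 FPKM in the WT chow samples, 1.14, 0.193 and 0.6803 in the WT high fat samples, 0.765, 0.219 and 0.749 in the KO chow samples and 0.4399, 0.697 and 0.325 in the KO high fat samples. Here WT high fat sample 1, first in marrow score, was above all others, which was so for no other member. Cdk1 (chr10:69335146-69352912) was at 0.216, 0.775 and 0.182 FPKM in the WT chow samples, 0.381, 0.09704 and 0.496 in the WT high fat samples, 0.374, 0.247 and 0.783 in the KO chow samples and 0.453, 0.403 and 0.489 in the KO high fat samples. Cdk1 in KO chow sample 1 was exceeded by all 3 libraries of KO mice on high fat diet, so it followed the lymphoid score less closely than Top2a or Ccnb1.

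Of the genes of chromosome segregation, the checkpoint kinase Bub1 (chr2:127800197-127831859) was the lowest member, at a mean of 0.1095 FPKM. It was at 0.0237, 0.2800 and 0.0548 FPKM in the WT chow samples, 0.181, 0.02299 and 0.09802 in the WT high fat samples, 0.156, 0.0343 and 0.194 in the KO chow samples and 0.0811, 0.106 and 0.0819 in the KO high fat samples. Values this low stand on few reads: read as multiples of the lowest step, Bub1 rested on about 2 to 27 fragments a library, with the multiples within 0.22 of a whole number. Aurkb (chr11:69045624-69051664), the catalytic kinase of the passenger complex, was at 0.1303, 0.576 and 0.242 FPKM in the WT chow samples, 0.384, 0.1297 and 0.311 in the WT high fat samples, 0.578, 0.178 and 0.838 in the KO chow samples and 0.397, 0.612 and 0.311 in the KO high fat samples. On the same reading it rested on about 5 to 42 fragments. KO high fat sample 2 was second highest of the 12 for Aurkb, behind KO chow sample 3. Birc5 (chr11:117849237-117855743), the survivin subunit of that complex, was at 0.722, 1.22 and 0.405 FPKM in the WT chow samples, 0.901, 0.345 and 0.831 in the WT high fat samples, 0.924, 0.344 and 1.38 in the KO chow samples and 0.705, 1.16 and 0.426 in the KO high fat samples. It was highest in KO chow sample 3 and WT chow sample 2, with KO high fat sample 2 next. Mki67 (chr7:135689784-135716450), the routine histological marker of dividing cells, was at 0.157, 0.6305 and 0.145 FPKM in the WT chow samples, 0.653, 0.193 and 0.463 in the WT high fat samples, 0.561, 0.0901 and 0.744 in the KO chow samples and 0.224, 0.257 and 0.226 in the KO high fat samples. Its 5 highest libraries were the 3 with a high lymphoid score and WT high fat samples 1 and 3. KO chow sample 2 was the lowest library for 4 members, Mki67, Ccna2, Birc5 and Rrm2, and KO chow sample 3 the highest for 7.

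**Figure D1:**
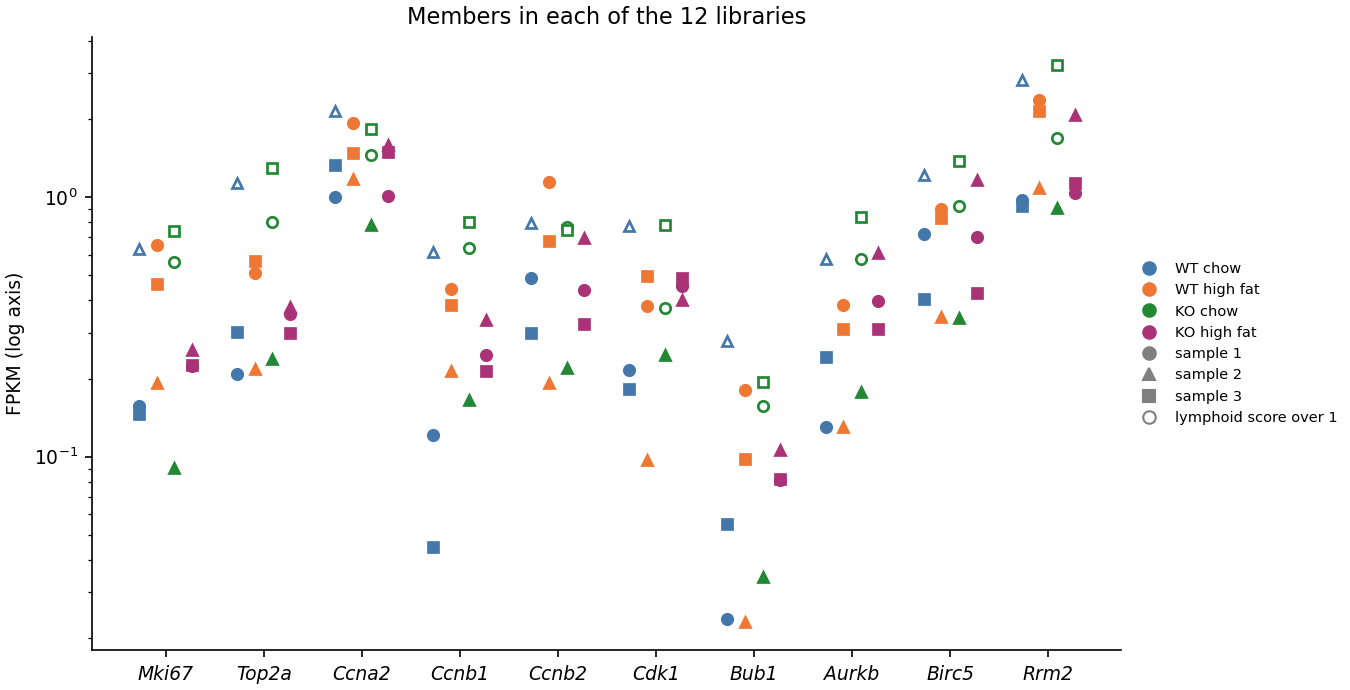
FPKM (log axis) of each of the 10 members in the 12 libraries, by group (colour) and sample number (shape), with open symbols for the 3 libraries whose lymphoid score is over 1. The open symbols lie at or near the top for most members, and the filled symbols of the normal chow groups lie lower, as for Top2a at 0.799 to 1.301 against 0.207 to 0.302 FPKM.

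The members were high and low in the same libraries. Pearson's r between 2 members over the 12 libraries, on log2(FPKM + 1), lay between 0.595 (Ccnb2 and Cdk1) and 0.931 (Mki67 and Ccnb1), with a median of 0.823 over the 45 pairs, a description of libraries that share tissue content and depth. The summed level of the 10 members was 4.04, 10.99 and 3.93 FPKM in the WT chow samples, 8.903, 3.67 and 7.46 in the WT high fat samples, 7.94, 3.21 and 11.9 in the KO chow samples and 4.95, 7.61 and 5.003 in the KO high fat samples. The group means were 6.32 ± 4.05, 6.67 ± 2.71, 7.67 ± 4.34 and 5.85 ± 1.52 FPKM (SD, n = 3 each), in the same order, so the means differed by less than the SD within 3 of the 4 groups. Ordered by sum, the libraries with a high lymphoid score ranked 1, 2 and 4 of 12, those with the highest marrow scores 3 and 6, and KO high fat sample 2 ranked 5.

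**Figure D2:**
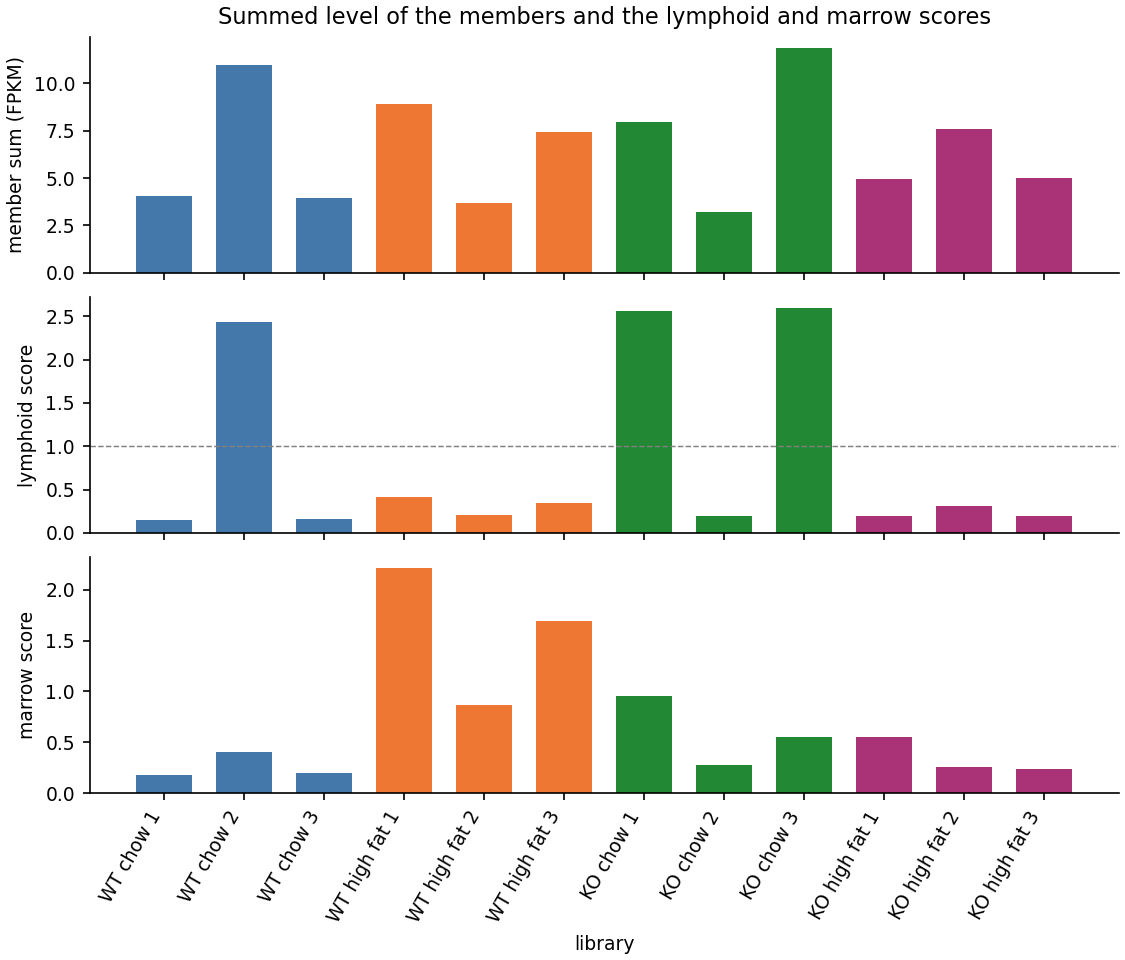
Summed FPKM of the 10 members (top), lymphoid score (middle) and marrow score (bottom), both scores as mean log2(FPKM + 1), in each of the 12 libraries, coloured by group. The 5 libraries that stand out in either score have sums of 7.45 to 11.9 FPKM, and the others have 3.21 to 5.003 FPKM except KO high fat sample 2, at 7.61 FPKM.

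No effect of high fat diet on the members passed the test in either genotype. In WT mice, 0 of 10 members were called at an adjusted p under 0.05 by limma over 14813 genes, where 10 genes (0.0675%) were called in all. The differences, high fat minus normal chow on log2(FPKM + 1), ran from -0.07 (Top2a) to 0.20 (Rrm2) with a median of 0.01, beside -0.01 over all genes. The smallest adjusted p was 0.895, for Mki67, with a difference of 0.14 ± 0.19 (SE). In KO mice, 0 of 10 were called, with 2 genes (0.0135%) called in all. The differences ran from -0.36 (Top2a) to 0.02 (Ccna2) with a median of -0.07, beside 0.01 over all genes, and 9 of the 10 were below 0. Top2a had the smallest adjusted p, 0.543, at -0.36 ± 0.24 (SE). The 95% intervals over both comparisons reached from -0.98 to 0.95, so differences of that size lie within the intervals that 3 mice a group give.

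No difference between the genotypes passed the test either. On normal chow, 0 of 10 members were called, where 7 genes (0.0473%) were called in all. The differences, KO minus WT, ran from -0.08 (Ccna2) to 0.29 (Ccnb1) with a median of 0.12, beside 0 over all genes; Ccnb1 had the smallest adjusted p, 0.428. On high fat diet, 0 of 10 were called, where 17 genes (0.115%) were called in all. The differences ran from -0.24 (Rrm2) to 0.18 (Aurkb) with a median of -0.09, beside -0.01 over all genes, and the smallest adjusted p was 0.672, for Mki67. The effect of diet differed between the genotypes for 0 of 10 members (interaction, 0 genes called, 0%). At an unadjusted p under 0.05, 0 of 10 members passed in each of these 5 tests, beside 1218, 1686, 2271, 2285 and 947 of the 14813 genes. The comparisons share groups of libraries and are not independent of each other. Nothing in the labels says how the mice of a group were housed or handled, and p-values measure the spread between these samples.

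**Figure D3:**
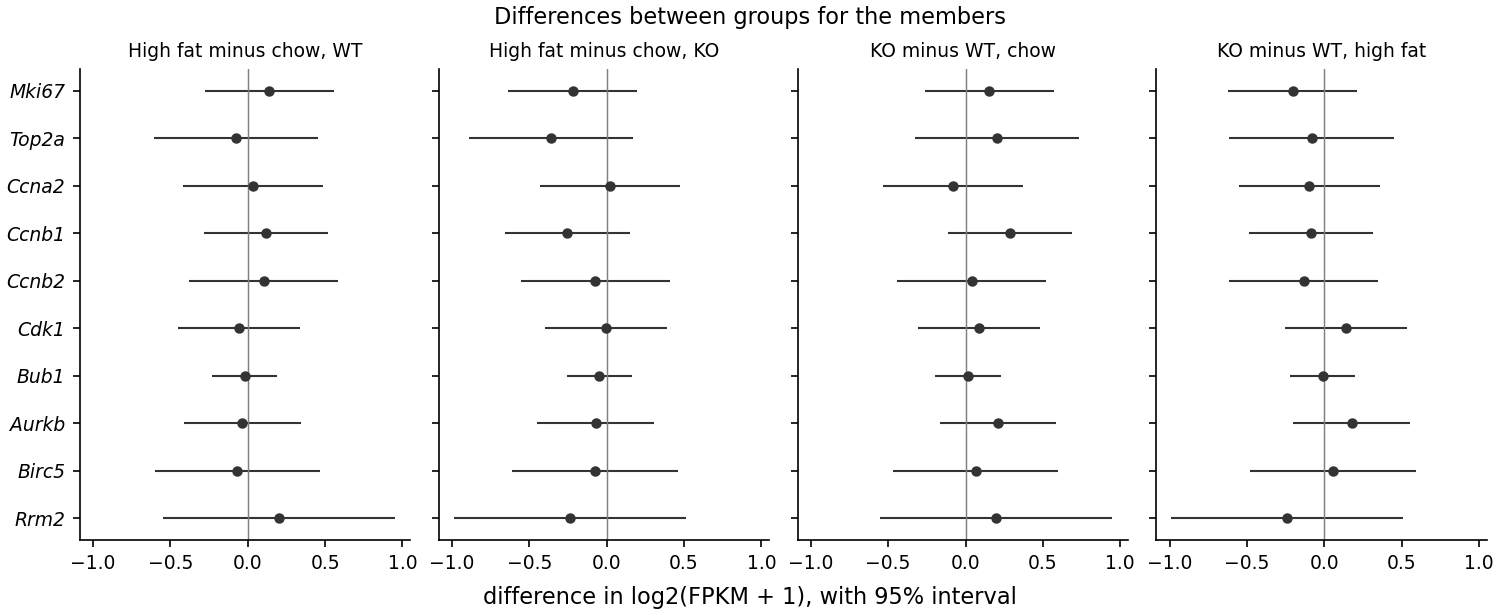
Difference in log2(FPKM + 1) between groups for the 10 members, one panel for each of the 4 comparisons (high fat minus normal chow in WT and KO mice, KO minus WT on each diet), points with 95% intervals from limma. Every interval includes 0.

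These differences moved when libraries with high scores were left out or the scores entered the fit. Without the 3 libraries with a high lymphoid score, which are all in the normal chow groups, the median difference over the members moved from 0.01 to 0.20 for high fat diet in WT mice and from -0.07 to 0.25 in KO mice, with all 10 differences above 0 in both. Again 0 of 10 members were called, and the KO group on normal chow was then 1 library, assumed to vary like the others. For KO minus WT on normal chow the median then moved from 0.12 to -0.02, with 2 of 10 above 0. With both scores as covariates the medians for diet were -0.08 in WT and 0.25 in KO mice. Those for KO minus WT moved from 0.12 to -0.11 on normal chow and from -0.09 to 0.12 on high fat diet, and that for the interaction from -0.10 to 0.29. Again 0 of 10 members were called in each, and 1 of 10 had an unadjusted p under 0.05, beside 890 to 1679 of the 14813 genes. Without WT high fat samples 1 and 3, the median for KO minus WT on high fat diet moved from -0.09 to 0.17, with all 10 above 0, and for high fat diet in WT mice from 0.01 to -0.22, with 0 of 10 above 0. In each, 0 of 10 were called. The WT high fat group was then sample 2 alone, the library high in keratin genes, assumed to vary like the others. These 3 alternatives were chosen after seeing the data. With single samples left out in turn, the medians ran from -0.09 to 0.20 for diet in WT mice, -0.27 to 0.04 for diet in KO mice, -0.04 to 0.32 for genotype on normal chow, -0.18 to 0.03 for genotype on high fat diet and -0.29 to 0.02 for the interaction. Without KO chow sample 2, an unadjusted p under 0.05 was reached by 3 members for diet in KO mice (median -0.27). It was reached by 2 for genotype on normal chow (median 0.32) and 2 for the interaction (median -0.29). Of all 14813 genes, 3030, 4123 and 1659 passed at that level in these 3 tests. Without KO chow sample 3 the medians for diet in KO mice and for genotype on normal chow turned to 0.04 and -0.04. In every such fit 0 of 10 members were called.

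Within the groups, most members rose with the lymphoid score. In a fit with the 4 group means, the slope was above 0 for all 10 members, and 7 of 10 were called by limma, where positive slopes were called for 6.80% of the 14813 genes. The slopes had a median of 0.24 on log2(FPKM + 1) per unit of score, beside -0.01 over all genes. Top2a had a slope of 0.32 ± 0.05 (SE; 95% interval 0.22 to 0.43; adjusted p = 0.00161). Ccnb1 had a slope of 0.25 ± 0.03 (SE; 95% interval 0.18 to 0.32; adjusted p = 0.000771), and Mki67 one of 0.24 ± 0.04 (SE; 95% interval 0.15 to 0.34; adjusted p = 0.00627). For Aurkb, Ccna2, Rrm2 and Bub1, the slopes were 0.21, 0.25, 0.40 and 0.11, with adjusted p of 0.0161, 0.0264, 0.0300 and 0.0418. Not called were Cdk1 (slope 0.20, adjusted p = 0.0614), Birc5 (0.27, 0.0615) and Ccnb2 (0.21, 0.146). Bub1 lost its call in 10 of the 12 fits that left out 1 sample, and Rrm2 and Ccna2 in 5 and 4. The slope rests on the normal chow groups, since the high fat libraries had scores of only 0.193 to 0.413.

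In those groups the size of the difference is plain from the values. The level in WT chow sample 2 was 1.83 (Ccna2) to 7.46 (Ccnb1) times the mean of the other 2 WT chow samples, with a median of 3.49 over the members. The mean of KO chow samples 1 and 3 was 2.11 (Ccna2) to 7.24 (Mki67) times KO chow sample 2, with a median of 3.72. For all 10 members these 3 libraries lay above the other 3 on normal chow without overlap, which was so for 19.2% of all genes tested. The libraries differed in other ways too. The B cell genes summed to 80.7 to 92.4 FPKM in them and 0.384 to 8.48 in the other 9, and the T cell genes to 54.4 to 62.0 against 2.03 to 5.67. The 7 genes of pro-B and pre-B cells, the dividing B cell precursors of marrow, summed to 2.90 to 5.04 FPKM against 0.0435 to 2.50. Much of that sum was Vpreb3, at 2.29 FPKM in WT chow sample 2 and 2.17 and 2.63 in KO chow samples 1 and 3. In KO chow sample 3 every other gene of the list was at or under 0.105 FPKM. The list as a whole was therefore not high there. Vpreb1 and Igll1 were at 1.16 and 0.941 FPKM in KO chow sample 1 and 0.412 and 0.556 in WT chow sample 2. In WT high fat sample 1, with the highest marrow score, they were at 0.378 and 0.544 FPKM. By group, the B cell sum ran from 0.526 to 80.7 in WT chow, 1.65 to 8.48 in WT high fat, 0.384 to 92.4 in KO chow and 0.985 to 2.25 in KO high fat libraries, and the T cell sum from 4.04 to 54.4, 2.03 to 2.93, 5.67 to 62.0 and 3.09 to 4.89. All 26 genes were above 0 in the 3 libraries, whereas Cd79a, of the B cell receptor, was at 0 in KO chow sample 2 and Lck, the kinase of the T cell receptor, at 0 in WT chow sample 1. The adipocyte genes summed to 1702 to 3317 FPKM in the 3 and 534 to 2173 in the others, the muscle fibre genes to 39590 to 51240 against 55430 to 71290, and the relative depth was 1.13 to 1.36 against 1.00 to 1.20. The part of each of these in the slope was not tested.

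Germinal centres are where B cells divide, so their genes were looked at beside the members. Rgs13, a regulator of chemokine signals in germinal centre B cells, was at 0.392 FPKM in WT chow sample 2, 0.575 in KO chow sample 1 and 0.797 in KO chow sample 3, and at or under 0.0955 in the rest. KO chow sample 3 was thus first in Rgs13 and in the member sum, but WT chow sample 2, next in the sum, was the lowest of the 3 in Rgs13. This gene was chosen after its values were seen. The whole list of 6 genes, whose sum is set by Bcl6 at 19.1 to 43.6 FPKM, did not stand apart in the 3 libraries (29.9 to 34.1 FPKM against 26.4 to 51.1 FPKM).

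With the marrow score the members also had slopes above 0, all 10 of 10, but 0 of 10 were called, where positive slopes were called for 0.135% of genes. Of the 21 genes called in either direction, 13 are genes of the score itself. The median slope was 0.38 per unit of score, beside 0.00 over all genes. Ccnb2 had the slope with the smallest adjusted p, 0.63 ± 0.15 (SE; 95% interval 0.30 to 0.96; adjusted p = 0.282), and Mki67 had one of 0.44 ± 0.17 (SE; 95% interval 0.07 to 0.81; adjusted p = 0.808). These were the 2 members with an unadjusted p under 0.05, where 736 of the 14813 genes passed at that level. With the replicate number as a block, 8 members passed at that level, beside 815 of the genes, and the median slope was 0.66. Without KO chow sample 2 the median was 0.24, and 0 of 10 were called in both fits. Among WT mice on high fat diet, the mean of samples 1 and 3 was 1.45 (Ccna2) to 6.06 (Bub1) times sample 2, with a median of 2.60 over the members. In these 2 libraries Ngp, a granule protein of neutrophil precursors, was at 106 and 38.2 FPKM against 10.2 in sample 2, and Alas2, of haem synthesis in erythroid cells, at 17.7 and 13.2 against 8.98. The neutrophil precursor genes summed to 1.28 to 7.70 FPKM in WT chow, 30.7 to 299 in WT high fat, 3.65 to 32.6 in KO chow and 2.61 to 10.6 in KO high fat libraries. WT high fat sample 2 was high in hair and skin keratin genes (summed level 50.3 FPKM against at most 1.61 in the other 11), and the part of any of these in the member levels was not tested.

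The marrow and lymphoid scores overlapped in part, since KO chow sample 1 ranked 2 in lymphoid and 3 in marrow score. Among the normal chow libraries the 2 scores were aligned. Those with a high lymphoid score had marrow scores of 0.401 to 0.952, and the others 0.177 to 0.273. With both scores in one fit, the median slope of the members was 0.21 on the lymphoid and 0.13 on the marrow score. On the lymphoid score 4 of 10 members were then called (6.05% of genes), Mki67, Top2a, Ccnb1 and Aurkb, and on the marrow score 0 of 10. Without WT high fat samples 1 and 3, 9 of 10 members were called on the lymphoid score (7.61% of genes), all but Birc5. The count of 7 moved with the libraries: it was 2 without WT chow sample 2 and 2 without KO chow sample 2, and 4 without WT chow sample 1 or without KO chow sample 3. Top2a and Ccnb1 were called on the lymphoid score in all 21 alternatives that tested them. Over the 9 libraries with a low lymphoid score, the mean log2(FPKM + 1) of the members and the marrow score had a Pearson's r of 0.695 and a Spearman's coefficient of 0.40. Without WT high fat samples 1 and 3 the r was -0.20, so the relation rests on those 2 libraries.

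**Figure D4:**
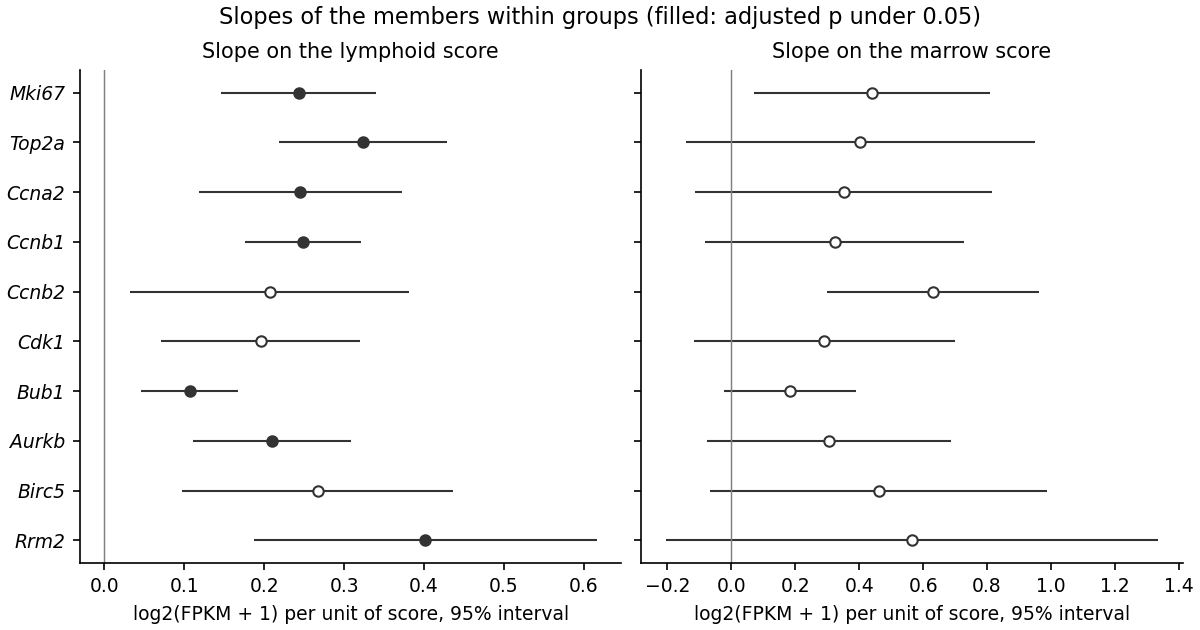
Slope of each member, in log2(FPKM + 1) per unit of score, on the lymphoid score (left) and the marrow score (right), with 95% intervals from limma fits with the 4 group means; filled points have an adjusted p under 0.05. On the lymphoid score every interval lies above 0 and 7 points are filled, and on the marrow score only Mki67 and Ccnb2 have intervals above 0 and no point is filled.

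KO high fat sample 2 had a high member sum without standing out among the 12 in either score. Its member sum, 7.61 FPKM, was 1.53 times the mean of the other 2 KO high fat samples. The ratio ran from 0.856 (Cdk1) to 2.06 (Birc5) over the members, with a median of 1.38. Its lymphoid score was 0.310, the highest of its group, beside 0.193 and 0.202 in samples 1 and 3. Its marrow score was 0.255, beside 0.550 and 0.242. This library had the highest macrophage genes of the 12, with a summed level of 366 FPKM over 9 genes. It was also the highest of the 12 for 5 fibroblast genes (1044 FPKM, next 925) and 9 bone genes (236.5 FPKM, next 225.6). Cd68, a lysosomal protein of macrophages, was at 40.1 FPKM against 20.5 and 20.7 in the other 2 KO high fat samples. Csf1r, the receptor of the macrophage growth factor CSF1, was at 28.9 FPKM against 21.0 and 14.6. By group, the macrophage sum ran from 102 to 216 FPKM in WT chow, 113 to 156 in WT high fat, 160 to 295 in KO chow and 183 to 366 in KO high fat libraries, with no gene of the macrophage list at 0. The part of macrophages, fibroblasts or bone in the member levels of KO high fat sample 2 was not tested.

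In the wider cell cycle, 9 of 25 replication genes and 17 of 35 mitosis genes tested, of 40 on that list, rose with the lymphoid score and 0 fell (6.80% of all genes rose). The medians were 0.10 and 0.15 per unit of score, beside -0.01 over all genes. The replication genes with the largest called slopes were Mcm6 (0.38) and Mcm5 (0.36), subunits of the MCM helicase, the licensing factor Cdt1 (0.34), the maintenance methylation factor Uhrf1 (0.34) and Mcm3 (0.28). Of the mitosis genes they were Cks2 (0.36), a Cdk1 subunit, Cdc20 (0.26), which activates the anaphase-promoting complex, the kinesin Kif22 (0.25), the passenger complex subunit borealin (Cdca8, 0.25) and securin (Pttg1, 0.25). Cdca8, at an adjusted p of 0.0453, lost its call in 11 of the 12 fits that left out 1 sample. The most abundant genes of these lists were not called: Pcna, the replication clamp, at 23.1 to 30.7 FPKM, had a slope of 0.12 (adjusted p = 0.0523), Rrm1, the large subunit of the Rrm2 enzyme, one of -0.05, the microtubule regulator Stmn1 one of 0.11 and Aurka, Aurora A, one of -0.02. Of 21 genes of G1 control and CDK inhibitors tested, of 22 on the list, 3 rose with the lymphoid score: Ccnd3 (0.28), a D-type cyclin, Cdkn2a (0.25), which encodes the CDK inhibitor p16, and Rbl1 (0.21), the pocket protein p107. Cdkn2a lost its call in 7 of the 12 fits that left out 1 sample, Ccnd3 in 4 and Rbl1 in 1. Cdkn2a was at 0 to 1.14 FPKM, highest in KO chow sample 1. The most abundant of the G1 control and CDK inhibitor list, Cdkn1b (p27) and E2f4, had slopes of -0.06 and -0.05 and were not called. In the 5 group comparisons and on the marrow score, 0 genes of these 3 lists were called; at an unadjusted p under 0.05 the counts over the 81 genes tested ran from 1 to 13. The count of 13 was on the marrow score, where 736 of the 14813 genes passed at that level.

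Cdkn1a, a gene outside the naming rule, is given because its KO and WT libraries stood apart, and was chosen after its values were seen. Cdkn1a, the CDK inhibitor p21, which holds cells out of the cycle, was at 7.02, 8.43 and 12.3 FPKM in the WT chow samples, 7.63, 13.3 and 12.1 in the WT high fat samples, 17.4, 24.5 and 39.2 in the KO chow samples and 31.4, 50.7 and 23.1 in the KO high fat samples. Each KO library was above each WT library. The difference, KO minus WT, was 1.41 ± 0.34 (SE; 95% interval 0.66 to 2.16; adjusted p = 0.280) on normal chow and 1.55 ± 0.34 (SE; 95% interval 0.79 to 2.30; adjusted p = 0.0893) on high fat diet, so neither was called. On the lymphoid score its slope was 0.00 (adjusted p = 0.990). On the same list of G1 control and CDK inhibitors, Rb1 was also higher in each KO library than in each WT library (6.47 to 10.3 against 5.095 to 5.59 FPKM). E2f4 was lower in each KO library (19.3 to 22.2 against 22.3 to 30.4 FPKM). The share of all genes set apart in this way was not counted.

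The genes most like the members were sought among 11487 other genes with a mean of at least 1 FPKM, by Pearson's r with the mean log2(FPKM + 1) of the 10 members over the 12 libraries. The 5 highest were Mcm5 (0.940), Tmem86a (0.933), Mcm6 (0.931), Arhgdib (0.926) and Mcm7 (0.925). The 3 Mcm genes encode helicase subunits that license replication origins. Arhgdib, a gene of white blood cells, was at 11.5, 35.5 and 10.4 FPKM in the WT chow samples, 22.9, 12.9 and 16.4 in the WT high fat samples, 38.7, 10.8 and 36.4 in the KO chow samples and 14.00, 20.8 and 15.8 in the KO high fat samples. Its 3 highest libraries were the 3 with a high lymphoid score, and WT high fat sample 1 and KO high fat sample 2 followed. These correlations are descriptions over libraries that share tissue content, and carry no test.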

How the data were processed

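RNA of hind limb muscle from 12 mice was sequenced by the authors, with libraries made by an Illumina TruSeq kit. The deposited values are FPKM per gene symbol, 1 file a sample, and the submitters' processing notes name TopHat2 2.0.8b, Cuffdiff 2.1.1 and mm10. That they are FPKM was read from the values, since neither the files nor the paper name the unit. Of repeated symbols, the row highest on average entered. Values were taken to log2(FPKM + 1), and 14813 genes with a mean of at least 0.1 FPKM were tested with limma 3.58.1 (R 4.3.3, intensity trend), with 4 group means and, for slopes, a score. P-values were adjusted by Benjamini-Hochberg, threshold 0.05. Samples were grouped by title. Sums, ranks and promoter matches were computed in Python 3.11.15 with pandas 2.3.3. The fits were tested on simulated data. The members and gene lists were chosen with earlier results of these data known. All 10 members are given in every sample. Of each wider list, up to 5 called genes with the largest slopes and the 2 highest are named, and of marker lists genes among the 3 highest. The exceptions are Rgs13, Cdkn1a and Rb1, chosen after their values were seen. Alternatives were another pseudocount and filter, a replicate block, only the groups compared, other scores, samples left out, and 4 chosen after seeing the data. Depth in reads is unknown, and other experiments of the study were not analysed here.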

Additional observations from a re-analysis of the deposited data

How the results depend on the processing

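In the 5 group comparisons and on the marrow score, the count of members called was 0 of 10 under every alternative run, or 0 of the 3 tested with an FPKM of at least 1 in 3 samples. On the lymphoid score it was 7 of 10 in the main fit and 2 to 8 with each sample left out in turn. It was 2 of the 3 members tested with an FPKM of at least 1 in 3 samples, and 4 with both scores together. Correlations of deviations from the group means ran from -0.733 to 0.353 between same-numbered samples of different groups. Between differently numbered samples they ran from -0.446 to 0.507. These ranges overlap and rest on few samples, so they cannot decide whether the shared numbers pair samples. With the replicate number as a block, 4 members were called on the lymphoid score, and the counts of all genes called were 0 for diet in KO mice, 4 for genotype on normal chow, 9 for genotype on high fat diet and 2 on the marrow score.

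Counts of all genes called moved as well. For diet in WT mice (10 genes) they were 3 with only the 2 groups, 1 with the scores as covariates, 1 without the 3 libraries with a high lymphoid score and 75 without WT high fat samples 1 and 3. For diet in KO mice (2 genes) they were 0 with a pseudocount of 0.1, 6 without a filter, 0 with an FPKM of at least 1 in 3 samples, 4 without the lymphoid libraries and 11 without the WT high fat samples. For genotype on normal chow (7 genes) they were 4 with a pseudocount of 0.1, 4 with only the 2 groups and 4 without the WT high fat samples. For genotype on high fat diet (17 genes) they were 7 with only the 2 groups, 3 with the covariates, 9 without the lymphoid libraries and 85 without the WT high fat samples. For the interaction (0 genes) they were 1 without a filter, 2 without the lymphoid libraries and 63 without the WT high fat samples. On the marrow score (21 genes) they were 1 with a pseudocount of 0.1, 12 with an FPKM of at least 1 in 3 samples, 115 without group means and 7 without the lymphoid libraries, and on the lymphoid score (1211 genes) 2362 without group means. With each sample left out in turn they ran from 1 to 50, 0 to 18, 4 to 16, 5 to 76 and 0 to 4 in the 5 comparisons, from 4 to 28 on the marrow score and from 396 (without KO chow sample 2) to 1692 on the lymphoid score. The cause was not tested.

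Without WT high fat samples 1 and 3 that group is 1 library, sample 2, which is high in keratin genes and assumed to vary like the others, and the counts above rest on it. The direction of most member differences, none of them called, turned with the scores as covariates: the number above 0 went from 5 to 2 of 10 for diet in WT mice, from 1 to 10 for diet in KO mice, from 9 to 2 and from 3 to 10 for genotype on chow and under high fat feeding, and from 1 to 10 for the interaction. Without the lymphoid libraries it went from 5 to 10, 1 to 10, 9 to 2 and 1 to 5 for diet in WT, diet in KO, genotype on normal chow and the interaction. Of the member with the smallest adjusted p in each comparison, the covariates turned Mki67 to -0.068 for diet in WT mice, Top2a to 0.14 for diet in KO mice, Mki67 to 0.12 for genotype on high fat diet and Ccnb1 to 0.0060 for the interaction. Without WT high fat samples 1 and 3, Mki67 turned to -0.12 for diet in WT mice and to 0.050 for genotype on high fat diet, and without the lymphoid libraries Top2a turned to 0.12 for diet in KO mice. The log2 difference in member sum moved by less than the pooled SD of the 2 groups (0.459 to 0.778), but its sign changed with single samples left out: it ran from -0.089 to 0.55 and from -0.67 to 0.14 for diet in WT and KO mice, and from -0.12 to 0.68 and from -0.44 to 0.10 for genotype on normal chow and high fat diet. Members under 1 FPKM rest on few fragments, and a pseudocount of 1 compresses their changes: the median slope on the lymphoid score was 0.24 with it and 0.59 with 0.1.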
